A study of Harpegnathos saltator with 27 samples.

Results

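HsOr271 is an odorant receptor of the jumping ant *Harpegnathos saltator*, known to respond to cuticular hydrocarbons, and its expression was followed here in pupal antennae of orco mutant and WT ants. The rule named 2 receptors, HsOr263 and HsOr271, and took every row of the count files that carries either name with any suffix. Of the 14407 genes in the files, 1 row was found, that of HsOr271. HsOr263 is not analysed here. HsOr271 is 1 of 376 tuning Or genes in the files and 1 of 9 genes, HsOr264 to HsOr272, that the study lists in numerical order on the same scaffold, called the array below.

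Antennae labelled orco mutant and antennae labelled WT were collected at D10, D15, D20, and D25, the number of days since puparium formation, and polyadenylated RNA was sequenced in bulk. Mutants gave 3 libraries at each stage, and WT gave 3 libraries at D10 and 4 at each later stage. The label of the mutants names the gene and no allele or zygosity, and no age other than the stage is given. The sources used here do not say how many pupae went into a library or whether replicates came from separate pupae, so p-values measure the spread between these libraries, which may be technical.

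An insect odorant receptor of the tuning kind binds the odor, and it works together with Orco, the co-receptor shared by olfactory receptor neurons (ORNs), as a ligand-gated ion channel. Without Orco, tuning receptors are not carried to the ORN dendrite in the fly *Drosophila*. Cuticular hydrocarbons are waxy compounds on the body surface of ants, which read them as cues of caste, fertility, and colony membership. Ant receptors for these compounds are usually identified by expressing them in fly neurons and recording the response. The Or family of ants arose in large part by tandem duplication, so that neighboring genes in an array are similar in sequence. Reads that mapped to several places were not counted, and reads from near-identical stretches of HsOr271 and its neighbors may therefore be missing from the counts.

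Depth ran from 3454610 to 52275933 gene-assigned reads (median 22719131), and mutant D10 replicates 3 and 2 were the shallowest. The labels give 3 sequencing batches. In batch 1 are replicates 1 to 3 of each WT stage, together with replicate 1 of the mutants at D10 and at D20. Batch 2 is made up of mutant libraries only, replicates 2 and 3 of D10 and replicate 1 of D15, and all remaining libraries are in batch 3. All 17 marker genes checked, for ORNs and other neurons, support cells, glia, muscle, and epithelium, had reads in every library. HsOrco itself had reads in all 12 mutant libraries, so its read count is no check of the genotype.

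HsOr271 was nearly silent in WT antennae at D10, was expressed from D15 to D25, and had no more than 3 reads in any mutant library at D20 and D25. At D15 the levels in mutants and WT overlapped. Levels are given as normalized counts, the read count divided by the size factor of the library. The mean was 33.0 ± 45.7 in mutants and 1.15 ± 0.419 in WT at D10 (SD, n = 3 each). At D15 it was 89.5 ± 33.7 in mutants (SD, n = 3) and 87.4 ± 42.6 in WT (SD, n = 4). At D20 it was 1.17 ± 1.18 in mutants (SD, n = 3) and 73.6 ± 6.42 in WT (SD, n = 4). At D25 it was 0 in every mutant library and 48.6 ± 20.0 in WT (SD, n = 4). Ordered from high to low, the 8 groups ran mutant D15, WT D15, WT D20, WT D25, mutant D10, mutant D20, WT D10, and mutant D25. Each neighboring pair in this order overlapped in range, except WT D10 and mutant D25.

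**Figure D1:**
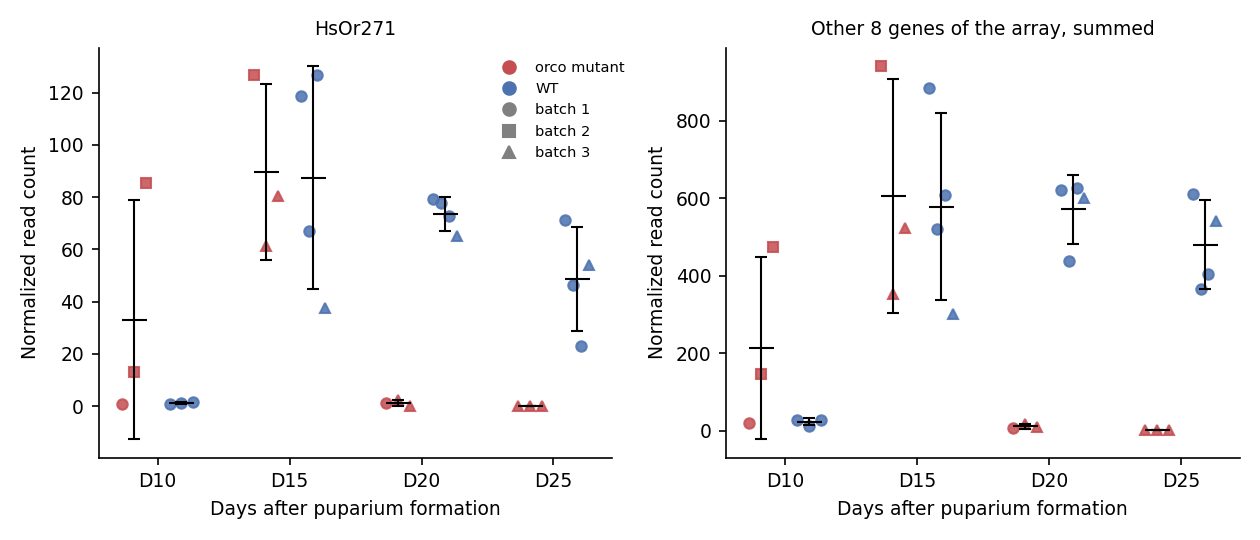
Normalized read counts of HsOr271 (left) and of the other 8 genes of the array summed (right) against stage, with a point for each library, a shape for each sequencing batch, and bars for the mean ± SD. All 3 mutant libraries at D20 and at D25 lie near 0, while WT libraries of these stages lie between 23.0 and 79.3 for HsOr271.

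To ask what the mutation did late in pupal life, mutant and WT libraries were compared at D20 and D25. At D20, HsOr271 had 1, 3, and 0 reads in mutant libraries, against 56, 64, 59, and 110 reads in WT libraries. The normalized counts were 1.15, 2.36, and 0 in mutants, against 79.3, 77.5, 72.6, and 65.0 in WT. The groups did not overlap, and the WT libraries differed by no more than 1.22-fold between the highest and the lowest. Over pooled reads, 4 in mutants and 289 in WT, the level was 68.2-fold lower in mutants, with a 95% exact interval of 26.4 to 252 that covers counting error only. The fitted mutant-to-WT log2 fold change was −5.96 with a standard error of 1.10, and it passed edgeR's quasi-likelihood test (adjusted p = 0.00169, adjusted over 11086 genes by the Benjamini-Hochberg method, as are all edgeR values given here). In this comparison 4.74% of all genes tested passed the threshold of 0.05, and 3.99% did so toward lower in mutants. The log2 fold change was −7.13 (edgeR adjusted p = 0.00755) without mutant D20 replicate 2, which held 3 of the 4 mutant reads, and −5.28 (edgeR adjusted p = 0.0164) without mutant D20 replicate 3. The difference was present in both batches that hold both genotypes. In batch 1 the single mutant library had 1.15, against 72.6 to 79.3 in 3 WT libraries. In batch 3 the 2 mutant libraries averaged 1.18, against 65.0 in the single WT library.

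At D25, HsOr271 had 0 reads in each of the 3 mutant libraries, against 36, 36, 5, and 100 reads in WT libraries. The normalized counts in WT were 71.3, 46.2, 23.0, and 54.1. The lowest of them came from replicate 3, in which a single read is worth 4.60 normalized counts. Taking the limit of 3 reads over the mutant libraries together, HsOr271 was at least 57.9-fold lower in mutants. The difference passed the test (edgeR adjusted p = 5.32e-04), in a comparison in which 16.5% of all genes passed and 11.3% were lower in mutants. All mutant libraries of this stage belong to batch 3, in which the single WT library had 54.1. In bulk samples, fewer cells of a type and less RNA per cell cannot be told apart.

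At D15, before these stages, the groups overlapped. HsOr271 had 127, 61.2, and 80.4 normalized counts in mutants, against 119, 66.9, 127, and 37.5 in WT. Only batch 3 holds both genotypes at this stage. In it the 2 mutant libraries averaged 70.8, against 37.5 in the single WT library. The mutant-to-WT log2 fold change was −0.0089 (standard error 0.77, edgeR adjusted p = 0.996), with 0.00902% of all genes passing. Its sign was not stable, with values from −0.67 with sequencing batch as a term to 0.22 without WT D15 replicate 3. Over pooled reads the level in mutants was 1.03 times that in WT, with a counting interval of 0.893 to 1.18. The spread between libraries was wider than this interval, from 61.2 to 127 in mutants and from 37.5 to 127 in WT.

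At D10, the mutant libraries disagreed with each other. HsOr271 had 1, 5, and 22 reads in mutant replicates 1 to 3, against 1, 2, and 2 reads in the WT libraries. In normalized counts these were 0.723, 13.0, and 85.3 in mutants, against 0.696, 1.24, and 1.52 in WT. Replicate 3 was the shallowest library of the series, and a single read is worth 3.88 normalized counts in it. Replicate 1, which was sequenced in batch 1 with the WT libraries, lay within the WT range. Replicates 2 and 3 belong to batch 2, which holds no WT library of any stage, so for these libraries the batch and the genotype cannot be told apart. The log2 fold change was 4.54 (standard error 1.09, edgeR adjusted p = 0.0913), with 0.198% of all genes passing. It was 2.08 (adjusted p = 1.00) without mutant D10 replicate 3 and 2.21 (adjusted p = 0.837) with batch as a term. It passed without mutant D10 replicate 1 (log2 fold change 5.22, adjusted p = 0.00226) and with DESeq2's test (4.73, adjusted p = 0.00174). The same libraries differed for HsOrco, with 3240, 7500, and 12378 normalized counts in mutant replicates 1 to 3, against 2562 to 4248 in WT.

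The stage at which HsOr271 turned on was examined next, by comparing neighboring stages in each genotype. In WT, the level at D15 was 62.6-fold that at D10 over pooled reads, 412 against 5, with a counting interval of 26.6 to 194. The log2 fold change was 6.07 (standard error 1.08, edgeR adjusted p = 4.90e-04), in a comparison in which 25.7% of all genes passed and 15.2% rose. No later change in WT passed the test. The log2 fold change was −0.25 (standard error 0.71, adjusted p = 0.895) at D20 over D15 and −0.57 (standard error 0.72, adjusted p = 0.821) at D25 over D20, with 11.6% and 0.00902% of all genes passing in these comparisons (edgeR).

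In mutants, the level at D20 fell to 1.17, against 89.5 at D15, which is 70.2-fold lower over pooled reads with a counting interval of 27.2 to 259. The log2 fold change was −6.21 (standard error 1.12, edgeR adjusted p = 5.67e-04), with 20.2% of all genes passing and 10.8% falling. It was −7.38 (adjusted p = 0.00218) without mutant D20 replicate 2 and −5.52 (adjusted p = 0.00466) without mutant D20 replicate 3. From D10 to D15 the log2 fold change in mutants was 1.52 (standard error 0.88, adjusted p = 0.251), with 10.3% of all genes passing (edgeR). Without mutant D10 replicate 3 it was 3.98 (adjusted p = 0.0126), and with batch as a term it was 3.19 (adjusted p = 0.0498). From D20 to D25, with 4 reads and then 0, no change was detectable at this depth, and 3.36% of all genes passed.

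Whether the genotypes changed differently between stages was tested with the difference of these changes. From D15 to D20 the change in mutants minus the change in WT was −5.96 on the log2 scale (standard error 1.30, edgeR adjusted p = 0.0133), with 2.58% of all genes passing and 2.43% toward lower. Without mutant D20 replicate 3, which had 0 reads of HsOr271, the value was −5.27 and the adjusted p was 0.0572, and without mutant D20 replicate 2 it was −7.12 (edgeR adjusted p = 0.0230). From D10 to D15 the difference was −4.55 (standard error 1.33, adjusted p = 0.409, with 0.00902% of all genes passing), and it passed only when mutant D10 replicate 1 was left out, of all alternatives tried (−5.23, edgeR adjusted p = 0.0201). From D20 to D25 it was −2.93 (standard error 1.91, edgeR adjusted p = 0.635), with 0.0541% of all genes passing.

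**Figure D2:**
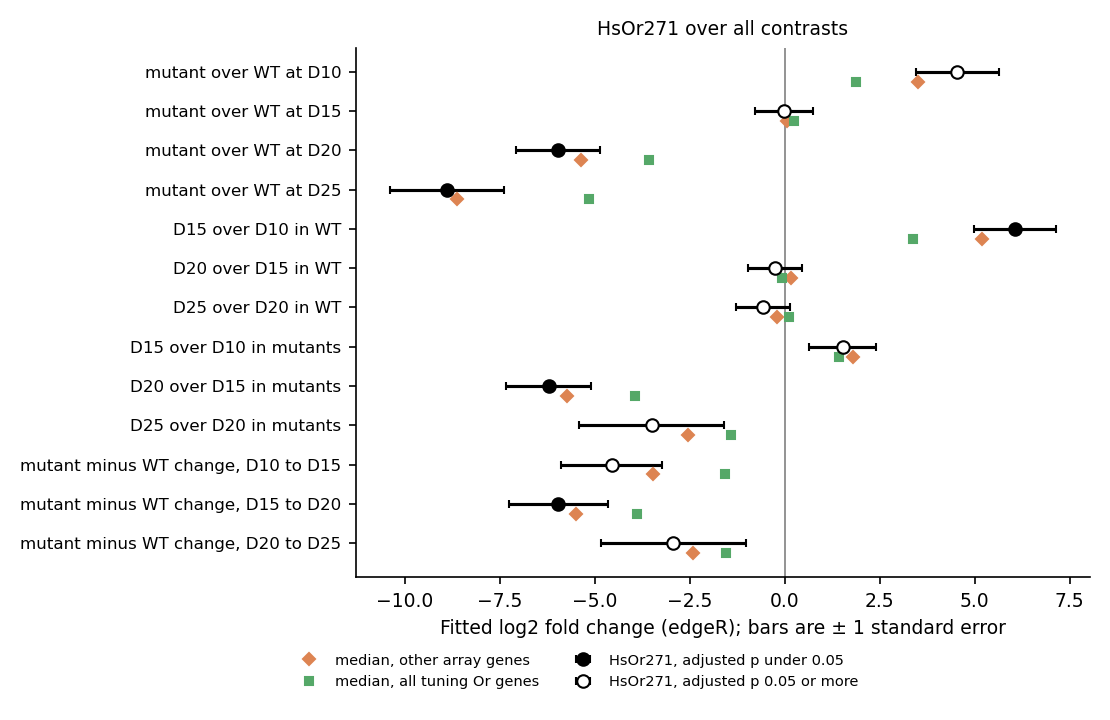
Fitted log2 fold changes of HsOr271 from edgeR for 13 contrasts (circles, ± 1 standard error, filled where the adjusted p was under 0.05), with the median fitted value of the other array genes (diamonds) and of all tuning Or genes (squares). HsOr271 lies at −5.96 for mutants over WT at D20 and at −0.0089 at D15; values that involve mutant D25 rest on groups with 0 reads and are no measure of size.

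The other genes of the array, also odorant receptors, were then set beside HsOr271. Of these 8 genes, 7 passed the count minimum of a mean of 10 reads per library, and HsOr272 did not. At D20 all 7 tested genes were lower in mutants, with a median log2 fold change of −5.36 (HsOr271, −5.96), against −0.0062 over all genes tested. Of these, HsOr268 did not pass without mutant D20 replicate 3 (−4.69, edgeR adjusted p = 0.0618). At D25 all 7 were lower again. Their median fitted value of −8.62 became −6.75 when the 4 genes with 0 mutant reads were placed at their bounds. The median of all tuning Or genes was −3.58 at D20 and −5.14 at D25 (−4.79 with bounds). Among tuning Or genes, 230 of 359 tested were lower at D20 and 302 at D25, where 3.99% and 11.3% of all genes were lower.

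For 8 of the 8 other array genes, HsOr272 included, the mutant libraries did not overlap with the WT libraries at D20 or at D25. The same count over all genes was not made, so this count has no background to be read against. HsOr265 had the lowest mutant level relative to WT at D20, with 1 read in mutants and 482 in WT, or 455-fold lower in mutants with a counting interval of 81.3 to 18019. HsOr270 and HsOr267 were 24.6-fold (8.10 to 122) and 25.2-fold (13.9 to 51.1) lower in mutants over pooled reads. Each of these 3 intervals overlaps with that of HsOr271 (26.4 to 252), while those of HsOr265 and HsOr267 do not overlap with each other. At D25, mutants had a single read each for HsOr266, HsOr269, and HsOr270, against 300, 193, and 44 reads in WT. HsOr264, HsOr265, HsOr267, and HsOr268 had 0 reads, and were at least 107-fold, 136-fold, 73.3-fold, and 52.7-fold lower in mutants. HsOr272 had 0 reads in mutants, against 18 in WT, and was at least 5.89-fold lower. These bounds use the limit of 3 reads in mutants and take the WT reads as counted.

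At D15 none of the 7 genes differed between genotypes by edgeR's test, with a median log2 fold change of 0.051. None of the 7 had an unadjusted p under 0.05 in edgeR, and none passed DESeq2's test, which called 0.848% of all genes. Among all 359 tuning Or genes tested, 0 passed in edgeR and 14 had an unadjusted p under 0.05, as did 1064 of all 11086 genes tested. At D10, 1 of the 7 was higher in mutants, HsOr266 (log2 fold change 3.51, standard error 0.74, edgeR adjusted p = 0.0493), with 0.171% of all genes passing toward higher. All 7 had an unadjusted p under 0.05 in edgeR, as did 187 of the 359 tuning Or genes, of which 17 passed. Among all 11086 genes tested, 619 had an unadjusted p under 0.05. DESeq2's test called 4 of the 7 and 1.55% of all genes. The call of HsOr266 was lost in edgeR with batch as a term (log2 fold change 1.82, adjusted p = 0.837) and when any of the D10 libraries except mutant replicate 1 was left out (adjusted p = 0.0812 to 0.587). It was also lost in edgeR with the replicate number as a block (adjusted p = 0.102), with no count minimum (0.0594), with DESeq2's size factors (0.0508), and with the filter of edgeR (0.0502), while it held with scaling by library size only (0.0464). The reads of the other array genes had the same order over the mutant D10 libraries as those of HsOr271, with summed normalized counts of 18.8, 146, and 473 in replicates 1 to 3, against 27.8, 13.1, and 28.1 in WT.

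In WT, all 7 tested genes rose between D10 and D15, with a median log2 fold change of 5.20, where 15.2% of all genes rose. Among all 359 tuning Or genes tested, 243 rose and 14 fell, with a median of 3.38. None of the 7 passed at the later steps, where 0 of 7 had an unadjusted p under 0.05 in edgeR and 0 passed DESeq2's test, which called 15.1% of all genes at D20 over D15 and 0.388% at D25 over D20. Over all 11086 genes tested, 2629 and 785 had an unadjusted p under 0.05 in edgeR at these 2 steps. The WT means at D20 and D25 were set against those at D15 for each gene. HsOr271 stood at 84.2% of its D15 mean at D20 and 55.6% at D25. HsOr265 stood at 117% and 116%, HsOr267 at 113% and 97.7%, and HsOr270 at 44.0% and 22.8%. None of these differences between genes was tested.

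**Figure D3:**
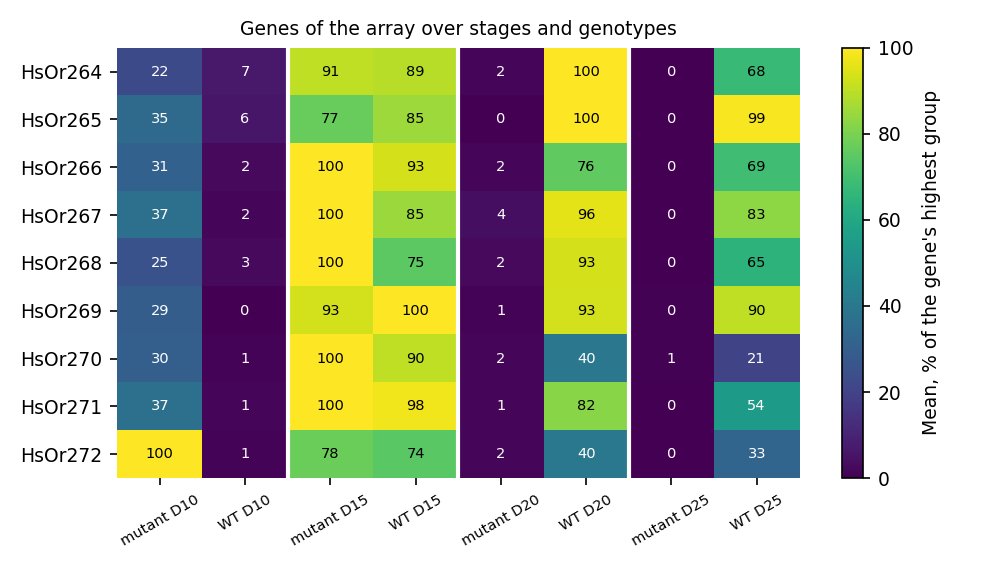
Mean normalized count of each array gene in each group, as a percent of the highest of its 8 group means (numbers in the cells, rounded). Mutant columns at D20 and D25 hold at most 4% of the maximum for every gene, and the D15 columns of both genotypes hold at least 74%.

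Outside the array, neither HsOr189 nor HsOr190, receptor genes listed on the same scaffold, passed the test between genotypes at D20 or D25. At D20, HsOr189 had 6.76 ± 4.31 normalized counts in mutants (SD, n = 3) and 29.6 ± 11.4 in WT (SD, n = 4), groups that did not overlap (log2 fold change −2.15, standard error 0.80, edgeR adjusted p = 0.159). HsOr190 had 75.3 ± 57.0 in mutants and 185 ± 94.2 in WT at D20, groups that overlapped (log2 fold change −1.32, standard error 0.62, edgeR adjusted p = 0.337). The unadjusted p in edgeR at D20 was 0.0135 for HsOr189 and 0.0463 for HsOr190. HsOr189 had 30.7 ± 6.27 normalized counts in mutants (SD, n = 3) and 27.8 ± 8.44 in WT (SD, n = 4) at D25 (log2 fold change 0.15, edgeR adjusted p = 0.907). HsOr190 had 604 ± 64.5 in mutants and 359 ± 232 in WT at that stage (0.76, edgeR adjusted p = 0.371). From D20 to D25 HsOr190 rose in mutants (3.02, edgeR adjusted p = 0.0171), where 3.36% of all genes passed. The difference of this change between genotypes did not pass (2.08, edgeR adjusted p = 0.439). The 30 genes HsOr273 to HsOr302, another run of Or genes, were all lower in mutants at D20 and at D25, with median fitted log2 fold changes of −5.16 and −7.47, where 3.99% and 11.3% of all genes were lower. At D10, 10 of these 30 were higher in mutants, against 0.171% of all genes. Mutant D10 replicates 2 and 3 belong to batch 2, which holds no WT library. Over the alternatives other than leaving out a library, 0 to 172 of all genes were called at D10.

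The share of the array's reads that fell on HsOr271 was used as a measure that does not depend on library scaling. At D15 it was 11.9, 14.7, and 13.3% in mutants, against 11.8, 11.4, 17.2, and 11.1% in WT. The means were 13.3 ± 1.43% (SD, n = 3) and 12.9 ± 2.93% (SD, n = 4) (two-sided exact permutation test, p = 0.857, adjusted p = 0.857 over 4 stages). At D20 mutants had only 48 array reads in all, and the share was 16.7, 12.5, and 0%, against 11.3, 15.0, 10.4, and 9.77% in WT (exact permutation p = 0.800, adjusted p = 0.857). Within each mutant library the share was known poorly, with a 95% Wilson interval of 4.34 to 31.0% in the best covered of them that had reads of HsOr271. At D10 it was 3.70, 8.20, and 15.3% in mutants, against 2.44, 8.70, and 5.13% in WT (exact permutation p = 0.500, adjusted p = 0.857). At D25 mutants had 1 array read per library, none on HsOr271, which allows any share. WT libraries had 10.5, 11.2, 5.38, and 9.07%. A comparison of 3 libraries with 4 cannot give a p below 0.0571, and 3 with 3 cannot go below 0.10. A difference in share between genotypes was not detectable at this depth, at D20 and D25 in particular.

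HsOrco, the mRNA of the co-receptor, was set beside HsOr271. It had 1022 ± 401 normalized counts in mutants (SD, n = 3) and 2593 ± 658 in WT (SD, n = 4) at D20 (log2 fold change −1.38, standard error 0.47, edgeR adjusted p = 0.109). At D25 it had 355 ± 114 in mutants and 3776 ± 1852 in WT (log2 fold change −3.42, standard error 0.51, adjusted p = 1.21e-04). For each 1000 HsOrco reads, there were 2.04, 1.94, and 0 HsOr271 reads in mutants at D20, against 36.4, 38.8, 26.5, and 18.8 in WT. The groups did not overlap, and the ratio was not tested, since it was chosen after the values were seen. At D15 the ratio was 5.69, 4.74, and 3.59 in mutants, within the WT values of 14.0, 6.15, 36.2, and 3.14. HsOrco itself had 12926 to 22416 normalized counts in mutants at D15, against 3502 to 11921 in WT (log2 fold change 1.10, edgeR adjusted p = 0.467). The ratio therefore also depends on the level of HsOrco in each genotype. The level of HsOrco fell between D15 and D20 in WT, with a log2 fold change of −1.77 (edgeR adjusted p = 0.00796), where that of HsOr271 was −0.25.

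**Figure D4:**
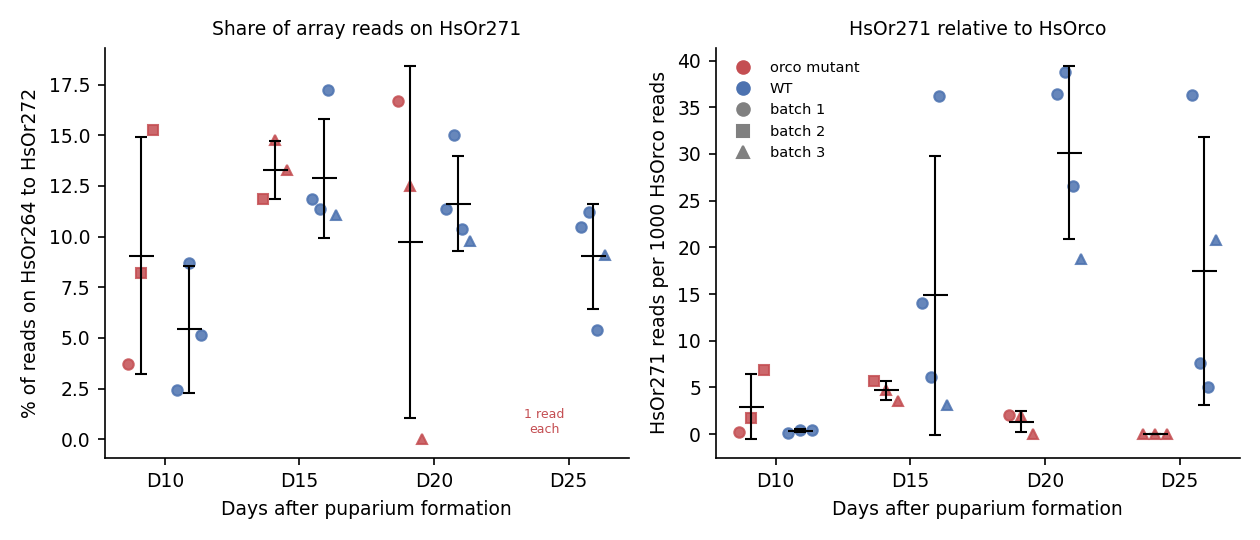
Share of the reads on HsOr264 to HsOr272 that lie on HsOr271 (left, in percent) and HsOr271 reads per 1000 HsOrco reads (right), by stage, with a point for each library and bars for the mean ± SD. The share overlaps between genotypes at D10, D15, and D20, and at D25 mutants had 1 array read per library and are not drawn on the left; on the right, mutants at D20 lie at 0 to 2.04 and WT libraries at 18.8 to 38.8.

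The genes whose levels over the 27 libraries were most like those of HsOr271 were odorant receptors. By Pearson correlation of log2(normalized count + 1) over 11085 genes, the 5 nearest were HsOr275, HsOr279, HsOr268, HsOr266, and HsOr289, with r of 0.978, 0.978, 0.978, 0.975, and 0.973. HsOr268 and HsOr266 belong to the array, and the other three to the run HsOr273 to HsOr302. Of the 50 nearest genes, 49 were tuning Or genes, 6 of them from the array, and the lowest r among the 50 was 0.942. Among all 11085 genes compared, 358 were tuning Or genes, 7 of them from the array. The median r over tuning Or genes was 0.830, and HsOrco had 0.686. These correlations are a description over libraries that share groups, stages, and depth.

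Some cell type markers also differed between genotypes at D20 or D25, where 4.74% and 16.5% of all genes passed in edgeR. All mutant libraries of D25 belong to batch 3. The study used the neuron markers for all neurons, ORNs included. Of 3 neuron markers, nSyb, which encodes a synaptic vesicle protein, was lower in mutants at D20 (log2 fold change −1.94, adjusted p = 3.19e-05) and at D25 (−1.52, edgeR adjusted p = 1.02e-04). The others, Syt1 and LOC105190174, had values of −0.57 and −0.53 at D20 and −0.13 and −0.44 at D25, and did not pass. The summed level of the list ran from 5388 to 8628 in mutants, against 9584 to 18392 in WT at D20, and from 8469 to 9729 in mutants, against 7098 to 21235 in WT at D25. Mhc, the muscle marker, was higher in mutants at D25 (log2 fold change 2.71, adjusted p = 0.0253), with 16788 to 19770 normalized counts, against 299 to 5904 in WT. Of the 4 co-receptor genes of ionotropic receptors, HsIr76b was lower in mutants at D20 and D25 (log2 fold changes −1.99 and −1.73). It had similar values before the loss, −1.85 at D10 (edgeR adjusted p = 0.0575) and −2.08 at D15 (edgeR adjusted p = 0.0636), which did not pass. Its change from D15 to D20 differed by 0.087 between genotypes (edgeR adjusted p = 0.991). HsIr8a was higher in mutants at D25 (1.78), and HsIr25a.1 and HsIr25a.2 did not pass at D20 or D25. Of 4 support cell markers, LOC105190591 was lower at D20 (−2.59) and at D25 (−1.37), and the other three did not pass. The markers of glia, epithelium, mechanosensory neurons, and ammonia-sensing neurons did not pass at either stage. The part of these markers in the loss of HsOr271 was not tested.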

How the data were processed

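Antennal RNA of 12 mutant and 15 WT libraries was analysed, grouped by the labels. The authors mapped reads with STAR 2.6.1d, trimming the batch with longer reads, and deposited raw read counts per gene, of which the unstranded column was used. Reads mapping to several places are not in them. The deposited table of normalized signal holds the counts divided by size factors of DESeq2 1.34.0. Dividing back gave whole reads for 100% of values within 0.001 reads, and 0 columns lacked a library.

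Two-sided quasi-likelihood tests were run in edgeR 4.0.16 under R 4.3.3 on genes averaging 10 or more counts, with TMM scaling and a single model of 8 groups. Benjamini-Hochberg adjustment was made per contrast, and the threshold was 0.05. The standard error is the fold change divided by the square root of F. Ratios of pooled reads have exact 95% intervals, and shares have Wilson intervals. For a count of 0 the limit was 3 reads over the group, with the reads of the other group taken as counted. These intervals and limits cover counting error only, since the reads carry no molecular identifiers. Tested on simulated data for mutants over WT at D20, with 198 changed of 11067 genes, edgeR recovered 96.5%, with 4.50% false calls, and DESeq2 96.5%, with 8.17% false calls. The simulated counts had the same spread setting for all genes and no differences between batches or stages. Whether these rates hold for the real libraries, or for comparisons other than this one, was not tested. DESeq2 1.42.0 was an alternative, and others are given in the closing section.

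The members, lists, and named genes were chosen with earlier results of these data known. Named are HsOr271, HsOrco, the array, HsOr189, HsOr190, the Ir co-receptors, the markers, and the 5 genes most correlated with HsOr271. Flanking genes outside the family and sequences are not used here.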

Additional observations from a re-analysis of the deposited data

Results flagged for a closer look

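Of 12 sets of 4 libraries checked for a sample far from the others, with the 95% critical value of Dixon's test, 2 held such a library, and chance gives about 1 in 20. The share of array reads on HsOr271 was 17.2% in WT D15 replicate 3, against 11.1 to 11.8% in the other WT D15 libraries. The summed normalized count of the other array genes was 439 in WT D20 replicate 2, against 600 to 626 in the other WT D20 libraries. The change of HsOr271 from D15 to D20 differed between genotypes by the test of the difference itself. It was −5.96 on the log2 scale in mutants relative to WT (edgeR, adjusted p = 0.0133).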

How the results depend on the processing

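The falls of HsOr271 in mutants relative to WT at D20 and D25, the rise from D10 to D15 in WT, and the fall from D15 to D20 in mutants passed in all 8 alternatives and in every fit without 1 library. The log2 fold change ran from −7.13 to −5.28 at D20, from −9.14 to −8.69 at D25, and from −7.38 to −5.52 for D15 to D20 in mutants in the latter fits. Other results moved. At D10, mutants over WT passed with DESeq2's test (4.73), and leaving out 1 library gave 2.08 to 5.22. From D10 to D15, the change in mutants passed with batch as a term (3.19), with 0.84 to 3.98 without 1 library. At D15, mutants over WT turned to 0.027 with DESeq2's test, 0.026 with its size factors, and 0.057 by library size only, with −0.31 to 0.22 without 1 library. The difference of changes ran from −5.23 to −2.09 for D10 to D15 and from −7.12 to −5.27 for D15 to D20. The share of array reads on HsOr271, mutants minus WT, was −0.27 percentage points at D15 from mean normalized counts, with −0.29 to 1.88 without 1 library, and −5.38 to 2.95 at D20. The cause of these moves was not tested. HsOr268 lost its call at D20 without mutant D20 replicate 3 (−4.69, adjusted p = 0.0618), and HsOrco gained one at D20 with DESeq2's test (−1.34) and with batch as a term (−1.63). All genes called numbered 22 at D10 (0 to 172 over the alternatives other than leaving out a library), 525 at D20 (399 to 835), and 1828 at D25 (605 to 4672). By library size only, the median over all genes at D25 was −0.63 on the log2 scale. Restricted to the libraries compared, HsOr271 fell under the count minimum for D10 and for mutants from D20 to D25. Of 12 same-numbered pairs of libraries, 3 correlated above 0.1 (range −0.41 to 0.50). With so few libraries in a group, this check cannot decide whether the numbers pair the libraries, and the main model left them unpaired. With the replicate number as a block, HsOr271 at D20 was −6.06 and no call of HsOr271 changed.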
